A study of Danio rerio with 6 samples.

Results

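The genes described here are those whose transcripts lay clearly above the controls on every leflunomide array: 56 zebrafish genes, measured by 58 probe sets. A probe set, the group of array probes that reads 1 transcript, was taken where the lowest of its 3 leflunomide values exceeded the highest of its 3 DMSO values by at least 0.7 on the log2 scale, and where the annotation gave it exactly 1 gene outside the zp egg coat family. The 58 came from 10776 probe sets with such an annotation (8776 genes), and from 15502 probe sets in all apart from array controls. Transcripts were measured in whole zebrafish embryos of the Tu strain on 6 Affymetrix zebrafish arrays. The groups were embryos exposed to leflunomide at 6.5 uM (3 arrays) and embryos exposed to the solvent DMSO (3 arrays), each from 50% epiboly, a stage of gastrulation, to 24 hours after fertilization (hpf). The labels give neither the number of embryos behind an array nor separate clutches, so spreads and tests cover only these arrays, whose number limits the precision.

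Leflunomide is given against rheumatoid arthritis. Its metabolite blocks dihydroorotate dehydrogenase, an enzyme of pyrimidine synthesis, and the drug is also a ligand of the aryl hydrocarbon receptor. That receptor is a transcription factor that binds foreign ring compounds and switches on detoxifying enzymes, cyp1a above all. p53 is a transcription factor that is stabilised when DNA synthesis or ribosome production is disturbed, and its targets halt the cell cycle, repair DNA or start cell death. In the tail bud of the embryo, T-box and caudal factors act in the progenitors that form the trunk and tail. Maternal transcripts are laid down in the egg and mostly cleared as the embryo switches on its own genome.

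Because the values themselves chose the genes, the increases below are a description and carry no test. Upwards, 103 of the 15502 probe sets met the gap of 0.7 (0.664%), against 342 downwards (2.21%). Among probe sets with 1 gene, 58 met it (0.538%). Of the 45 that met it without entering the group, 34 had no gene, 8 had several and 3 were single zp genes. The gap had a median of 0.876 and ran from 0.708 to 3.616, and 15 of the 58 reached 1. The difference of the group means, leflunomide minus DMSO, had a median of 1.278, equal to 2.425-fold, and reached 2 in 6 probe sets. Just inside the threshold lay haus2 (gap 0.708) and arl3l2 (0.709), and just outside it b3gnt3.1 (0.699), zranb2 (0.696) and tefa (0.696). All 58 had a coarse level of at least 4 and so entered the limma fit over 12669 probe sets, which called each of them higher; it called 9.95% of all tested probe sets higher and 11.1% lower. Since that fit used the same arrays as the choice, nothing is read from this count. With an array left out 55 to 58 kept their call: ace lost it without any DMSO array, and phlda3 and zgc:173770 without DMSO array 3. The rule itself turned most on leflunomide array 1, without which it would have taken 171 probe sets.

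Each probe set is deposited with its median over the 6 arrays set to 0, so a value is a log2 distance from that median and levels of different genes cannot be set against each other. Where groups do not overlap, this makes the lowest leflunomide and the highest DMSO value mirror images of each other. By the rounding of the values, 26 of the 58 had a level of 4 to 8 and 32 of 8 to 16, against 53.6% and 28.2% of all 15502 probe sets. None lay at 2 to 4, where 18.3% of all did. Whole embryos were measured, so fewer cells of a type and less RNA per cell cannot be told apart, and neither can more cells and more RNA per cell.

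**Figure D1:**
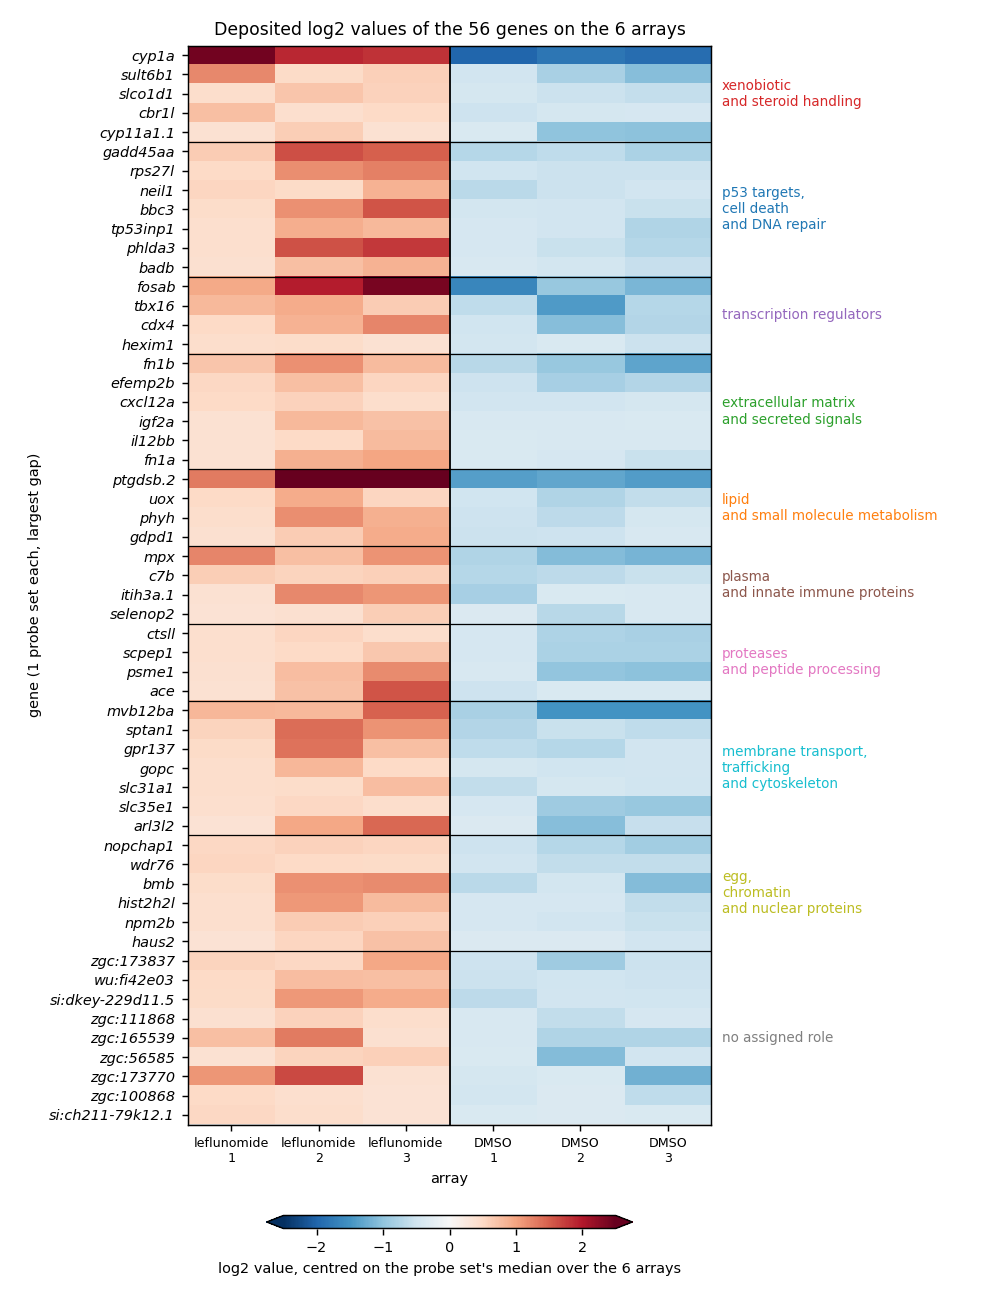
Heat map of the deposited log2 values, centred on each probe set's median, for the 56 genes (rows, 1 probe set each, in 10 groups by function) on the 3 leflunomide arrays (left) and the 3 DMSO arrays (right); colours end at 2.5 in either direction. cyp1a, ptgdsb.2 and fosab have the strongest contrast, and leflunomide array 1 is paler than arrays 2 and 3 in most rows, among them phlda3, bbc3 and ace.

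The 5 genes of xenobiotic and steroid handling included the largest increase of the 56 genes. cyp1a encodes a cytochrome P450 that oxidises ring compounds. It read 2.41, 1.88 and 1.81 on leflunomide arrays 1 to 3, against -1.98, -1.81 and -1.90 on DMSO arrays 1 to 3. All 3 leflunomide values stood at least 3.616 above all DMSO values, array 1 was the highest of them, and the means differed by 3.93 (15.3-fold). sult6b1, a sulfotransferase of the kind that makes compounds soluble for excretion, read 1.21, 0.49 and 0.60, against -0.49, -0.80 and -1.06 in DMSO. cbr1l, a carbonyl reductase, read 0.75, 0.42 and 0.50, against -0.51, -0.43 and -0.42 in DMSO. Like cyp1a, these 2 enzymes were highest on leflunomide array 1. slco1d1, an organic anion transporter, read 0.44, 0.69 and 0.58, against -0.44, -0.53 and -0.60 in DMSO. cyp11a1.1, which encodes the enzyme that opens steroid synthesis from cholesterol, read 0.39, 0.62 and 0.39, against -0.39, -1.01 and -1.02 in DMSO. Its DMSO arrays were uneven, with DMSO 1 well above the other pair.

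Few of the other tested genes tied to the aryl hydrocarbon receptor moved with cyp1a. Of 29 listed genes of the receptor and of xenobiotic enzymes, 14 had a probe set of their own and were tested. The remaining ones, among them cyp1b1, ahrra and ahrrb, gave no value here. Of the 14, 3 were called higher and 0 lower in limma. Over 7832 tested genes, 10.6% were called higher and 11.4% lower, and every list count is to be read beside these shares. The list counts include raised genes, which the rule itself chose as higher. The list median difference was 0.169, and the median of all tested genes was 0.045. The 3 were cyp1a, sult6b1 and sult2st1, another sulfotransferase (difference 0.67, limma adjusted p = 0.00991). Among the 11 without a call, named here after their values were seen, cyp1c1 had a difference of 0.87, nqo1 of 0.40, tiparp of 0.06 and the receptor gene ahr2 of -0.41. The cyp1c1 arrays overlapped: they read 0.38, 1.58 and -0.31 on leflunomide arrays 1 to 3, against -0.04, 0.04 and -0.96 in DMSO. Leaving out any 1 of the 6 arrays kept the calls of all 3. Of them only sult2st1 had not been chosen by the rule on these same arrays.

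The 7 genes of the p53 response, cell death and DNA repair were higher by a median of 1.49. gadd45aa, a growth arrest gene, read 0.63, 1.61 and 1.50 on leflunomide arrays 1 to 3, against -0.71, -0.63 and -0.80 in DMSO. phlda3, which encodes an inhibitor of Akt kinase and is a p53 target in mammals, read 0.41, 1.59 and 1.77, against -0.41, -0.56 and -0.71 in DMSO. bbc3 encodes Puma, which triggers apoptosis at mitochondria, and read 0.46, 1.15 and 1.57, against -0.46, -0.48 and -0.55 in DMSO. In these 3 genes the DMSO arrays lay close together, and leflunomide array 1 lay far below arrays 2 and 3. rps27l, a ribosomal protein variant that p53 induces in mammals, read 0.49, 1.16 and 1.26, against -0.49, -0.53 and -0.54 in DMSO. neil1, a glycosylase that removes oxidised bases from DNA, read 0.54, 0.48 and 0.88, against -0.68, -0.54 and -0.48 in DMSO. tp53inp1, a stress protein that acts with p53, read 0.42, 0.91 and 0.80, against -0.42, -0.47 and -0.75 in DMSO. badb, which encodes the death promoter Bad, had a gap of 0.798 and a difference of 1.15. Of the 7, only neil1 did not have its lowest leflunomide value on array 1.

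The wider p53 list joined p53 targets with p53 regulators and growth arrest genes, and it held calls in both directions. A lower call in this list is therefore not always that of a p53 target. Of 30 tested genes 10 were called higher, 5 of them in the raised group (gadd45aa, tp53inp1, rps27l, bbc3 and phlda3), and 5 were called lower (median difference 0.235). Besides them ccng1, a cyclin G that p53 induces in mammals, was higher by 0.77 (limma adjusted p = 0.00486), whereas mdm4, which encodes an inhibitor of p53, fell by 0.72 (adjusted p = 0.00738). The 5 higher genes outside the raised group differed by 0.407 to 0.838, and only ccng1 of them kept its call in all 6 fits without an array. Of the 5 lower genes, mdm4 kept its call in all 6, cdkn1bb and pcna in 5, and cdkn1ca and plk2b in 1. Without DMSO array 3 the list had 6 higher genes. mdm2, the main p53 target that feeds back on p53, was not called (difference 0.47); it is named after its value was seen. In the apoptosis list 5 of 18 tested genes were higher and 3 lower, beside 10.6% and 11.4% of all tested genes. bbc3 and badb were among the higher ones, badb at its second probe set (0.68). The Bcl-2 family genes bcl2l1 (0.71, limma adjusted p = 0.0122) and bcl2l10 (-0.71, adjusted p = 0.00735) and the apoptosis inhibitors birc5a (0.71, adjusted p = 0.0146) and birc2 (-0.77, adjusted p = 0.00906) ran in opposite directions. The bcl2l1 call was lost without DMSO array 3, and that of birc5a without DMSO array 2 or 3.

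Of the 4 transcription regulators, 2 mark the tail bud. fosab, the AP-1 subunit Fos, read 0.95, 1.96 and 2.38 on leflunomide arrays 1 to 3, against -1.63, -0.95 and -1.13 in DMSO, so that the means differed by 3.00 (8.02-fold). tbx16, a T-box factor that drives cells of the tail bud into the mesoderm, read 0.82, 0.94 and 0.63, against -0.63, -1.41 and -0.72 in DMSO. cdx4, a caudal factor of the posterior body, read 0.49, 0.87 and 1.22, against -0.49, -1.06 and -0.74 in DMSO. tbx16 was about equally high on the leflunomide arrays, while fosab and cdx4 were lowest on array 1. In both tail bud genes DMSO 2 was the lowest DMSO array. hexim1, an inhibitor of the elongation kinase P-TEFb, read 0.44, 0.46 and 0.38, against -0.45, -0.38 and -0.54 in DMSO, among the most even increases of all.

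Other tail bud genes were also called, in either direction. Of 32 tested genes of the tail bud and presomitic mesoderm, 10 were called higher and 5 lower, with a median difference of 0.317. Next to tbx16 and cdx4, mespaa, a factor of the forming somite, was higher by 0.77 (limma adjusted p = 0.00686) and the homeobox gene vox by 1.12 (adjusted p = 0.00786). lfng, which modifies Notch receptors, fell by 0.99 (adjusted p = 0.00229) and aldh1a2, which makes retinoic acid in the somites, by 0.82 (adjusted p = 0.00888). These 4 calls were kept in all 6 fits without an array, and the count of higher genes fell to 5 without DMSO array 2 and to 6 without DMSO array 3. The remaining lower calls, of dla, dlc and dld, were lost in 3, 4 and 5 of the 6 fits. The list of Wnt and Fgf feedback targets had 6 of 21 genes higher and 0 lower. They were cdx4, sp5l (0.92, limma adjusted p = 0.00969), sp5a (0.40, adjusted p = 0.0204), tbx6 (0.80, adjusted p = 0.0405), wif1 (0.44, adjusted p = 0.0412) and sfrp1a (0.62, adjusted p = 0.0492). Besides cdx4, which the rule had chosen on these same arrays, only sp5l kept its call in all 6 such fits. Of these genes, cdx4, sp5l, sp5a and tbx6 are also in the tail bud list, so their calls are counted in both. The tested Fgf feedback genes spry2, spry4, dusp6, etv4, etv5a, etv5b and il17rd were not called. They are named after their values were seen. Among 30 tested immediate early genes only fosab and ier2a were called higher (ier2a 0.71, limma adjusted p = 0.0112, lost without DMSO array 3), and 7 were called lower. The lower ones included myca (-1.12, adjusted p = 0.00203), zfp36l2 (-0.71, adjusted p = 0.00377), klf17 (-0.62, adjusted p = 0.00861) and mycb (-0.60, adjusted p = 0.0171, lost without leflunomide array 2 or any DMSO array). klf17 is also in the hatching gland list, where the same call is counted again. The remaining lower calls, of dusp1, dusp5 and zfp36l1a, were each lost in 5 of the 6 fits without an array.

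**Figure D2:**
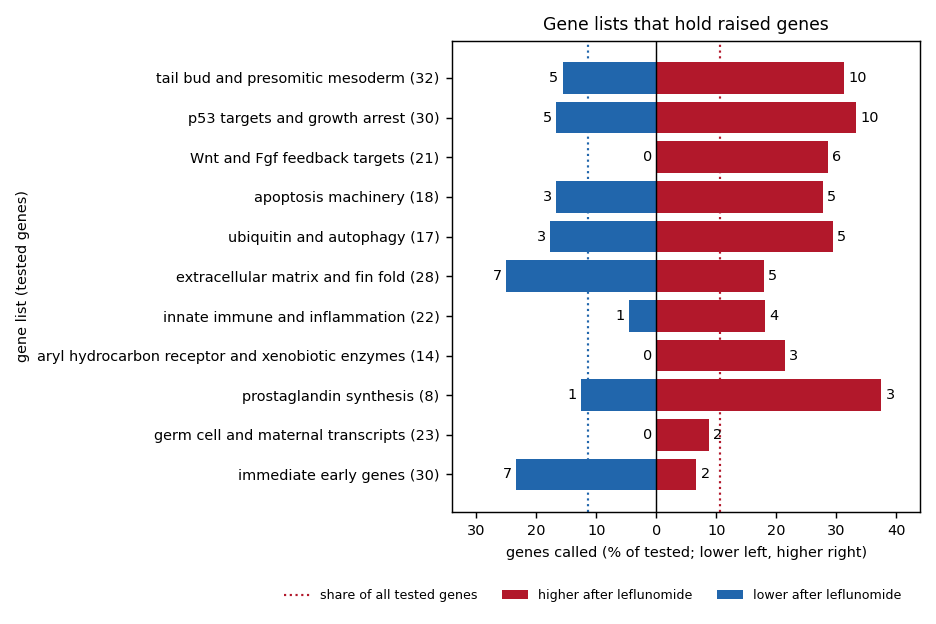
Share of tested genes called higher (red, right) and lower (blue, left) after leflunomide by limma in the 11 gene lists that hold at least 1 raised gene; numbers at the bars are gene counts and dotted lines mark 10.6% and 11.4% of all tested genes. The tail bud and p53 lists have 10 higher genes each, and the immediate early list has 2 higher against 7 lower. The bars include raised genes, which the rule itself chose as higher. They are 2 of the 10 in the tail bud list, 5 of the 10 in the p53 list and 2 of the 3 in the aryl hydrocarbon list.

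The 6 genes of the extracellular matrix and of secreted signals held both zebrafish fibronectins, proteins of the matrix on which mesoderm migrates and somites form. fn1b read 0.69, 1.14 and 0.78 on leflunomide arrays 1 to 3, against -0.69, -0.95 and -1.32 in DMSO (difference 1.86, 3.63-fold). fn1a had a gap of 0.746 and a difference of 1.19 at the chosen probe set. Its other probe sets (0.18 and 0.21) did not share this increase, as described with the repeated probe sets. efemp2b, a fibulin that helps assemble elastic fibres, read 0.51, 0.75 and 0.53, against -0.51, -0.83 and -0.73 in DMSO. fn1b had its widest spread among the DMSO arrays, with DMSO 3 the lowest. cxcl12a, a chemokine that guides germ cells and the lateral line primordium, read 0.49, 0.57 and 0.44, against -0.48, -0.47 and -0.44 in DMSO. igf2a, an insulin-like growth factor, read 0.39, 0.81 and 0.74, against -0.39, -0.41 and -0.39 in DMSO. il12bb, which encodes the shared subunit of interleukins 12 and 23, read 0.38, 0.50 and 0.79, against -0.38, -0.39 and -0.40 in DMSO. In these 3 signals the DMSO arrays were nearly identical, and the increases differed among leflunomide arrays, least so for cxcl12a.

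The wider matrix list was split. Of 28 tested genes 5 were higher and 7 lower, with a median difference of 0.032. fn1b, fn1a at its chosen probe set and the laminin gene lamb1a (0.74, limma adjusted p = 0.00627) were higher. The collagen chaperone gene serpinh1b (-0.77, adjusted p = 0.00309), the collagen gene col1a2 (-1.22, adjusted p = 0.00829) and the protease inhibitor gene timp2a (-1.05, adjusted p = 0.00829) were lower. The calls of lamb1a and of these lower genes were kept without any 1 array. The remaining calls, has2 and tgfbi higher and dcn, col1a1a, postnb and col5a2a lower, were each lost in at least 3 of the 6 fits without an array. In the innate immune list cxcl12a was the member with the lowest adjusted p among 4 of 22 tested genes called higher, and 1 was called lower, beside 10.6% and 11.4% of all tested genes; its second probe set (-0.08) was not called. The others were isg15 (1.63, limma adjusted p = 0.0327), c3a.6 (0.95, adjusted p = 0.046) and b2m (0.38, adjusted p = 0.0425), with cxcr4a lower (-0.56, adjusted p = 0.0174). Each of these 4 calls was lost in at least 3 of the 6 fits without an array.

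Of the 4 genes of lipid and small molecule metabolism, ptgdsb.2 stood out. It encodes a prostaglandin D synthase of the lipocalin family and read 1.304, 3.018 and 3.190 on leflunomide arrays 1 to 3, against -1.378, -1.304 and -1.398 in DMSO. The DMSO arrays were nearly alike, arrays 2 and 3 rose far more than array 1, and the means differed by 3.86 (14.6-fold). uox, the urate oxidase of purine breakdown, read 0.51, 0.93 and 0.55, against -0.51, -0.76 and -0.61 in DMSO. phyh, a peroxisomal enzyme that breaks down branched fatty acids, read 0.44, 1.16 and 0.88, against -0.52, -0.66 and -0.44 in DMSO. gdpd1, a phosphodiesterase of lysophospholipids, read 0.39, 0.64 and 0.92, against -0.54, -0.52 and -0.39 in DMSO. All 4 were lowest on leflunomide array 1. In the prostaglandin list, 3 of 8 tested genes were higher and 1 lower. Besides ptgdsb.2 they were its paralog ptgdsb.1 (1.78, limma adjusted p = 0.0147), the phospholipase gene pla2g12b (0.56, adjusted p = 0.0371) and, lower, the cyclooxygenase gene ptgs2a (-0.52, adjusted p = 0.0342). The calls of these 3 were lost in 3 to 5 of the 6 fits without an array, in each case without any DMSO array. The ptgdsb.1 probe set read 0.33, 1.60 and 1.89 on the leflunomide arrays, the same order as ptgdsb.2, and a further probe set is annotated to both genes, so that signal may be shared between the paralogs.

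The 4 genes of plasma and innate immune proteins were mpx, c7b, itih3a.1 and selenop2. mpx, the myeloperoxidase that marks neutrophils, read 1.22, 0.75 and 1.12 on leflunomide arrays 1 to 3, against -0.75, -1.08 and -1.16 in DMSO. Its other probe sets did not share this increase, as described with the repeated probe sets. c7b, of the complement cascade, read 0.61, 0.56 and 0.60, against -0.71, -0.65 and -0.56 in DMSO, one of the most even increases. itih3a.1, a heavy chain of a plasma protease inhibitor, read 0.38, 1.21 and 1.11, against -0.83, -0.38 and -0.41 in DMSO. selenop2, a selenoprotein P that carries selenium, read 0.37, 0.40 and 0.62, against -0.37, -0.70 and -0.39 in DMSO. mpx and c7b were highest on leflunomide array 1, and itih3a.1 and selenop2 lowest on it.

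Proteases and peptide processing accounted for 4 genes. ctsll, a cathepsin L of the lysosome, read 0.43, 0.54 and 0.43 on leflunomide arrays 1 to 3, against -0.43, -0.77 and -0.81 in DMSO. scpep1, a serine carboxypeptidase, read 0.42, 0.49 and 0.68, against -0.42, -0.80 and -0.80 in DMSO. psme1, an activator subunit of the proteasome, read 0.41, 0.76 and 1.19, against -0.41, -0.98 and -1.04 in DMSO. In these 3 genes DMSO 1 lay nearest to the leflunomide arrays. ace, the angiotensin-converting enzyme, read 0.37, 0.73 and 1.57, against -0.52, -0.37 and -0.37 in DMSO, and its increase rested mostly on leflunomide array 3. Over all 56 genes the highest DMSO value lay on DMSO 1 in 31, on DMSO 2 in 16 and on DMSO 3 in 9; over all tested probe sets it lay there in 31.2%, 33.5% and 35.3%.

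Membrane transport, trafficking and the cytoskeleton accounted for 7 genes. mvb12ba, a subunit of the ESCRT-I complex that sorts ubiquitinated membrane proteins, read 0.83, 0.82 and 1.48 on leflunomide arrays 1 to 3, against -0.82, -1.49 and -1.49 in DMSO (difference 2.31, 4.96-fold). sptan1, a spectrin of the membrane skeleton, read 0.55, 1.39 and 1.12, against -0.73, -0.55 and -0.63 in DMSO. Its other probe set (-0.13) did not share this increase, as described with the repeated probe sets. gpr137, a membrane protein of lysosomes in mammals, read 0.47, 1.36 and 0.76, against -0.64, -0.70 and -0.47 in DMSO. Array 3 carried the highest value of mvb12ba, and array 2 that of sptan1 and gpr137. gopc, a Golgi protein that sorts membrane proteins, read 0.44, 0.83 and 0.49, against -0.44, -0.50 and -0.49 in DMSO. slc31a1, the copper importer, read 0.43, 0.45 and 0.77, against -0.61, -0.43 and -0.49 in DMSO. slc35e1, of the nucleotide sugar transporter family, had a gap of 0.858 and a difference of 1.22, and arl3l2, a small GTPase of the Arf family, a difference of 1.59. In the list of ubiquitin and autophagy genes, 5 of 17 tested genes were higher and 3 lower. mvb12ba, sqstm1, which encodes an adaptor of autophagy (0.70, limma adjusted p = 0.00923), and wipi1 (0.60, adjusted p = 0.0143, lost without DMSO array 1) were higher. The remaining higher calls, of atg5 and map1lc3a, were lost in 6 and 5 of the 6 fits without an array. The muscle ubiquitin ligase genes trim63a (-1.90, adjusted p = 0.00114) and trim63b (-0.93, adjusted p = 0.00244) and the deubiquitinase gene usp2a (-0.996, adjusted p = 0.00483) were lower.

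The 6 egg, chromatin and nuclear protein genes included a pair of maternal transcripts. bmb, brambleberry, which fuses the nuclei formed around single chromosomes in the cleaving egg, read 0.46, 1.15 and 1.18 on leflunomide arrays 1 to 3, against -0.67, -0.46 and -1.08 in DMSO. npm2b, a nucleoplasmin that prepares chromatin in the egg, read 0.41, 0.64 and 0.61, against -0.41, -0.47 and -0.57 in DMSO. In the list of 23 tested germ cell and maternal transcripts these 2 were the only ones called, both higher, below the share of 10.6% over all genes, and the list median was 0.207. nopchap1, a chaperone for the assembly of nucleolar ribonucleoproteins, read 0.52, 0.58 and 0.54, against -0.52, -0.71 and -0.87 in DMSO. wdr76, a nuclear WD repeat protein, read 0.54, 0.50 and 0.48, against -0.48, -0.61 and -0.61 in DMSO. hist2h2l, a core histone gene, read 0.42, 1.09 and 0.80, against -0.42, -0.42 and -0.61 in DMSO. nopchap1 and wdr76 were even over the leflunomide arrays, while bmb and hist2h2l were lowest on array 1. haus2, a subunit of the augmin complex of the mitotic spindle, had a difference of 0.94.

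No role was assigned to 9 genes, which the annotation knows mostly by clone names. zgc:173837 read 0.55, 0.52 and 0.98 on leflunomide arrays 1 to 3, against -0.52, -0.89 and -0.55 in DMSO. wu:fi42e03 read 0.50, 0.78 and 0.75, against -0.54, -0.50 and -0.52 in DMSO. si:dkey-229d11.5 read 0.49, 1.08 and 0.93, against -0.65, -0.49 and -0.49 in DMSO. Their differences of 1.33, 1.19 and 1.37 lay near the median of the raised genes. zgc:111868 read 0.40, 0.58 and 0.43, against -0.40, -0.62 and -0.42 in DMSO, and zgc:165539 read 0.76, 1.29 and 0.39, against -0.39, -0.75 and -0.76 in DMSO. The differences of the remaining 4 were 1.72 for zgc:173770, 1.16 for zgc:56585, 0.91 for zgc:100868 and 0.81 for si:ch211-79k12.1. zgc:173770 and zgc:165539 were both highest on leflunomide array 2 and lowest on array 3, and a probe set that was left out for its several genes is annotated to both.

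Tissue markers gave no tissue shared by the group. Only 18 of the 56 genes were in any of 26 lists of pathways and tissues, and 15 of these lists held none of them, among them those of notochord, epidermis, pronephros, endoderm and liver, hatching gland and yolk layer. Other genes of these lists were called. In the notochord list 5 of 18 tested genes were higher and 0 lower. Of these 5 calls, 2 held in all 6 fits without an array. Higher and lower calls were 4 and 5 of 41 for epidermis and 0 and 3 of 12 for pronephros. They were 1 and 3 of 15 for endoderm and liver and 1 and 2 of 7 for hatching gland. For yolk layer they were 5 and 4 of 29. The higher call of the endoderm and hatching gland lists was the same gene, foxa3, which is also among the 5 of the notochord list. Its call was lost in all 6 fits without an array. The shares over all tested genes were 10.6% and 11.4%. In 9 marker lists for cell types, mpx of the myeloid list was the sole entry. The other 8 lists, for skeletal muscle, red blood cells, neurons, neural progenitors, neural crest and pigment, endothelium, lens and heart, held 57 tested markers with 0 called higher and 41 lower. All 11 muscle markers (median difference -3.599), all 7 erythroid markers (-2.606) and all 7 crest and pigment markers (-2.149) were lower. Lower calls were 6 of 10 for neurons, 5 of 9 for neural progenitors, 3 of 6 for endothelium, 2 of 2 for lens and 0 of 5 for heart. All 11 muscle and 7 erythroid markers with a probe set of their own passed the level of at least 4 that the fit required. So did 12669 of the 15502 probe sets. By what they are known for, tbx16 and cdx4 mark the tail bud, bmb and npm2b the egg, and mpx, whose probe sets disagree, neutrophils. Of the 32 tested tail bud genes 10 were higher, 5 lower and 17 not called, and 21 of the 23 germ cell and maternal genes were not called. The rule left out the zp egg coat genes. Among these, zp2.6 (difference 1.94), zp3a.2 (1.59) and zpax4 (1.58) also met the gap of 0.7, as did probe sets shared by several zp2 genes. Values were normalized between arrays to equal overall distributions, and the part of the falling tissues in the increases was not tested.

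Repeated probe sets show how far the increases hold for the gene rather than for 1 stretch of its transcript. Among the 56 genes 44 had a single probe set, and the other 12 had 16 probe sets that did not meet the rule. Of these 16, 8 differed by more than 0.5 in the same direction and 8 by less than 0.25, or downwards. fosab had another probe set that met the rule, at 2.36 beside 3.00, and 2 that did not, at 0.89 and 0.92. The second probe sets of tbx16 (0.87), arl3l2 (0.76), badb (0.68) and si:dkey-229d11.5 (0.98) were called higher as well, with smaller differences than the chosen ones. The second slc31a1 probe set had a difference of 0.93 and was not called: it read 0.92, 0.87 and 0.01 on leflunomide arrays 1 to 3, against -0.01, -0.74 and -0.26 in DMSO. zgc:173837 had 1.38 and 1.33 at its chosen probe sets and 1.25 at a further one.

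In 5 genes no other probe set was higher by 0.25 or more: mpx, sptan1, fn1a, cxcl12a and hist2h2l. The chosen mpx probe set was higher by 2.03 on average, whereas the 3 others differed by 0.08, -0.01 and -0.41, the last called lower by limma. Their values on leflunomide arrays 1 to 3 were -0.17, -0.17 and -0.10, against 0.30, 0.41 and 0.10 in DMSO, at the probe set that fell. By their identifiers, all 4 mpx probe sets were designed from the same sequence cluster as that of cyp1a. Of 7 tested myeloid markers 1 was called higher (mpx, at the chosen probe set), 1 lower (lyz, the lysozyme gene, by 2.43 on the log2 scale) and 5 were not called, with a median difference of 0.121. Which transcript the chosen mpx probe set measured was not tested. sptan1 differed by 1.66 at the chosen probe set and by -0.13 at the other. The chosen one carries the suffix for probes that can bind unrelated transcripts, and it shares its cluster with the chosen probe set of si:dkey-229d11.5 and 21 others. Of those 21, 10 were called higher, among them a2m3g, which encodes an alpha-2-macroglobulin (1.08, 0.96), 2 were called lower, both of stmn1b (-1.36, -0.57), 8 were not called and 1 was not tested. fn1a differed by 0.18 and 0.21 at its other probe sets, the second of them at a level under 4, cxcl12a by -0.08, and hist2h2l by 0.17 at a level under 4. That suffix occurred in 4 of the 58 chosen probe sets (6.9%), against 2.01% of all 15502. In all, 10 of the 56 genes shared the cluster of their probe set with probe sets of other genes.

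**Figure D3:**
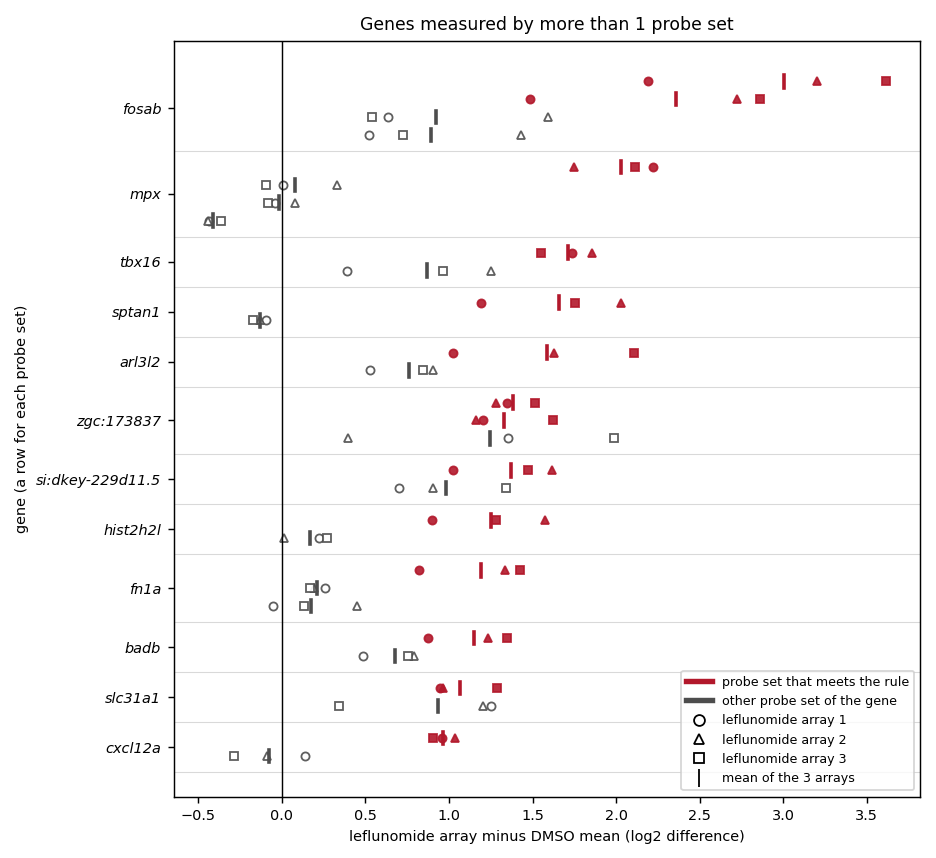
Leflunomide array minus DMSO mean (log2 difference) for each probe set of the 12 raised genes that have more than 1; red marks the probe sets that meet the rule, grey the others, symbols the 3 leflunomide arrays and bars their mean. The other probe sets of fosab, tbx16 and arl3l2 lie to the right of 0, while those of mpx, sptan1 and cxcl12a lie at or near 0 or to its left.

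The leflunomide arrays did not raise these genes to an equal extent. Measured from the DMSO mean, the median increase of the 58 probe sets was 1.086 on leflunomide array 1, 1.321 on array 2 and 1.354 on array 3. Array 1 was the lowest of the 3 for 40 probe sets (69.0%) and the highest for 8 (13.8%). Other probe sets called higher, 1203 in number, had medians of 0.482, 0.623 and 0.618, with array 1 lowest in 63.3% and highest in 11.2%. Array 1 was thus the lowest in most probe sets of either kind. The ratio of the increase on array 1 to the mean of arrays 2 and 3 had a median of 0.83 over the 56 genes, and it exceeded 1 in 11. It was lowest for phlda3 (0.43) and highest for sult6b1 (1.50). By function the median ratio was lowest for the p53 and cell death genes (0.59) and highest for xenobiotic and steroid handling (1.15), where cyp1a, sult6b1 and cbr1l were highest on array 1.

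**Figure D4:**
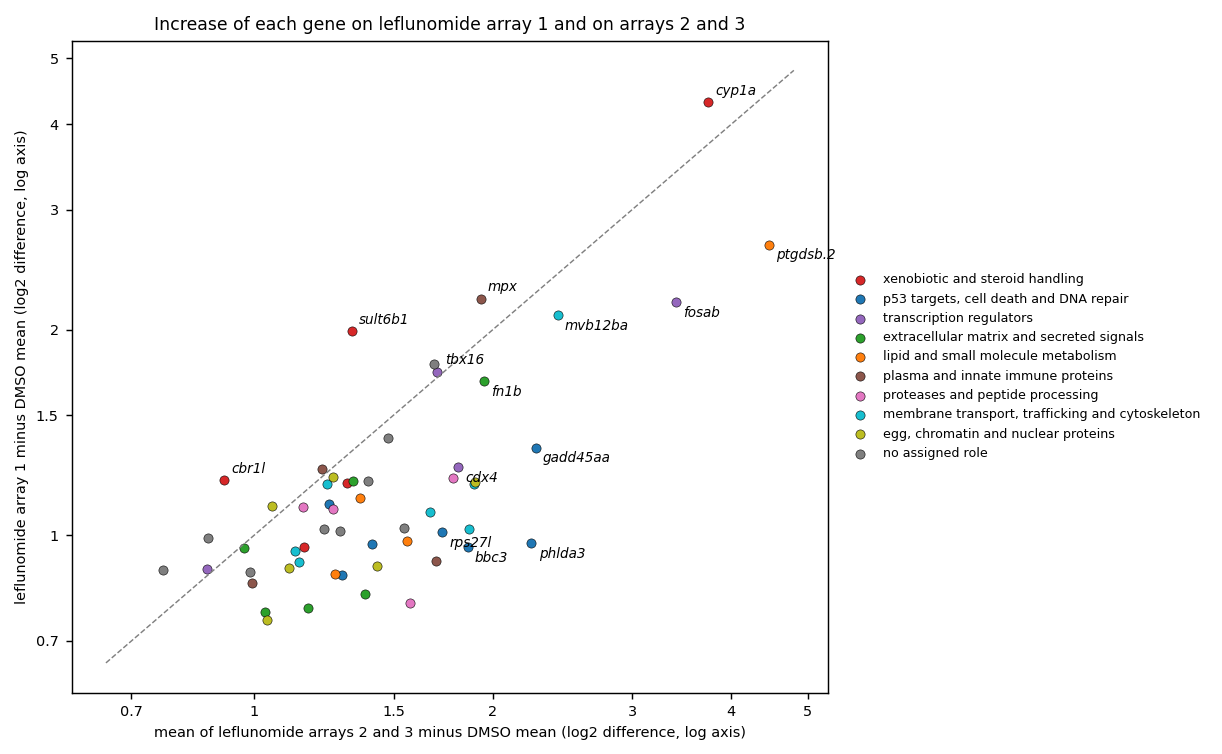
Increase over the DMSO mean on leflunomide array 1 (vertical) against the mean increase on arrays 2 and 3 (horizontal), both log2 differences on log axes, for the 56 genes coloured by function; on the dashed line both are equal. Most genes lie under the line, phlda3 and bbc3 far under it, while cyp1a, sult6b1, cbr1l and mpx lie above it.

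The spread among leflunomide arrays was also wider than among DMSO arrays. The SD over 3 arrays had a median of 0.242 in leflunomide and 0.121 in DMSO, and it was larger in leflunomide for 41 of 58 probe sets (70.7%), against 63.7% of all tested probe sets. RNA spiked into the samples before labelling differed on 1 array: the 3' minus 5' difference of these spikes lay between 0.54 and 2.00 on leflunomide array 3 and between -0.71 and 0.18 on the other 5 arrays. As each probe set is centred on its median, this difference is a shift relative to the other arrays and not a 3' to 5' ratio. Hybridisation spikes stayed between -0.12 and 0.13 on all 6. The part of this labelling difference in the increases on array 3, ace among them, was not tested. In the gene order of RefSeq (assembly GRCz12tu, 55 of the 56 genes found), the raised genes were scattered. The sole pair with fewer than 10 protein-coding genes between them was zgc:56585 and il12bb, with 9.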

How the data were processed

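Per the labels' protocols, Trizol was used to extract total RNA. The 6 Affymetrix arrays were grouped by sample title. The deposited values are log2 and, per the submitters' processing notes, come from GCRMA, whose version and options are not given in the sources used here. Their log base was taken as 2 from GCRMA, and the centring of each probe set on its median (0 within 5e-07) is not stated in those sources. The step of single-precision rounding doubles at levels of 4 and 8, which gave a coarse level for each probe set. GCRMA removes sequence-dependent background and aligns array distributions, so only relative changes are seen.

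Of 15617 probe sets, 115 controls were left out, and the 12669 at a level of at least 4 were fitted in limma 3.58.1 (lmFit, eBayes; R 4.3.3), two-sided, with Benjamini-Hochberg adjustment over all of them and a threshold of 0.05. The procedure was tested on simulated data. A permutation test of 3 against 3 arrays cannot go below p = 0.1 and was not used. The platform annotation gave 1 gene to 10795 probe sets, several to 135 and none to 4572.

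The genes, the lists and the tests were chosen with earlier results of these data known, and functions were assigned by hand from gene names. In each function group up to 5 genes with the largest gap are given on all arrays. From each list that holds a raised gene, up to 6 called genes with the lowest adjusted p are named with values. Some others are named only by whether their calls held. Of the lists without a raised gene, the tissue lists named above are given as counts, with foxa3 also named, and the rest are not given. In lists a gene had 1 probe set, by level, suffix specificity and identifier in that order, in place of a planned choice by mean that centring does not allow. Alternatives covered filter, scaling, variance model, weights, replicate block, gap size and each array left out. The labels name neither batches nor dates.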

Additional observations from a re-analysis of the deposited data

Results flagged for a closer look

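The largest increase in the table belonged to no named gene. A probe set to which the annotation gives no gene read 2.25, 2.36 and 1.86 on leflunomide arrays 1 to 3, against -2.18, -2.12 and -1.86 on DMSO arrays 1 to 3. Its difference of 4.21 and its gap of 3.714 were larger than those of cyp1a, and it was drawn from data outside the named genes.

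The spiked-in RNA controls, also outside the main measurement, stood apart on leflunomide array 3. There the 3' minus 5' difference of the centred values was 2.0 for dap, 1.07 for thr, 0.75 for phe and 0.54 for lys, each the highest of the 6 arrays. These differences compare arrays and give no 3' to 5' ratio.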

How the results depend on the processing

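By the rule, leaving out an array or blocking by replicate could not reverse the mean difference of any of the 56 genes. That the direction was kept in 504 of 504 alternatives, which also covered scaling, is therefore no support. In these alternatives the differences were 0.74 to 1.232 times the reported value. The largest shift was that of ptgdsb.2, to 4.464 without leflunomide array 1. The number of chosen probe sets depended on the rule: 157 with a gap of 0.5, 15 with a gap of 1, 32 at a level of at least 8, and 70 to 171 with an array left out, the most without leflunomide array 1. With array medians aligned 54 of the 58 still met the rule, and 49 with 75th percentiles aligned. limma called 55 to 58 of the 58 with an array left out: ace was lost without any DMSO array, and phlda3 and zgc:173770 without DMSO array 3. At a level of at least 8 it called 32, since the other 26 lay outside that fit. Over all probe sets, 1261 higher and 1403 lower calls became 799 and 684 at a level of at least 8, 297 and 590 at an adjusted p of 0.01, and 438 to 1395 higher and 736 to 1473 lower with an array left out: 646 and 856 without leflunomide array 2, 550 and 784 without DMSO array 1, 526 and 736 without DMSO array 2, and 438 and 742 without DMSO array 3. The p53 list had 6 to 11 higher genes with an array left out, and the tail bud list 5 to 11, and 3 at a level of at least 8. Of 728 alternative counts over all lists, 185 moved by over 1.5 times.

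The labels do not say whether same-numbered arrays were paired, and the main fit did not pair them. Their deviations from the group means correlated at 0.332, 0.189 and 0.072 for numbers 1 to 3, all positive. Whether they shared a source was not tested. With the replicate block limma made 1267 higher and 1326 lower calls, all 58 among the higher, and 106 probe sets had every same-numbered difference at 0.7 or more. A planned count of promoter motifs was not run, as promoter sequences were not used here. With 3 arrays a group and coarse levels, signal over background limits the low probe sets most.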
